A study of Mus musculus with 4 samples.

Results

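The 8 genes described here, *Aqp5*, *Slc12a2*, *Ano1*, *Kcnn4*, *Chrm3*, *Chrm1*, *Atp1b1* and *Gjb1*, encode the channels, transporters, receptors and gap junction protein that are known for the secretion of fluid by salivary acinar cells. They were chosen by name, as the entries of the deposited gene list whose symbol equals 1 of these names, and they are 8 of the 32285 genes listed. Because several of them had their highest level outside the acinar cells, they are called fluid secretion genes below, without the word acinar.

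Fluid secretion in a salivary acinus starts at muscarinic acetylcholine receptors, which raise calcium inside the cell. Calcium opens chloride channels on the luminal side and potassium channels, chloride that had been loaded through the basolateral cotransporter leaves towards the lumen, sodium follows between the cells, and water follows the salt in large part through aquaporin-5. The sodium pump maintains the gradients on which the cotransporter runs, gap junctions couple neighbouring acinar cells, and the ducts then take up much of the salt.

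The study is on the mouse salivary glands, their antimicrobial proteins and the microbes of the mouth, and to find the cells that make these proteins it counted the 3′ ends of transcripts in single cells of dissociated glands. The series lists 4 samples, all of them submandibular and sublingual glands together, from untreated wild-type female C57BL/6N mice aged 6 to 8 weeks. The labels name 2 mice and the published methods a larger number. The deposited matrix carries 1 barcode suffix, so the mouse, gland and sample of a cell could not be told, and the matrix was treated as 1 sample without replicates.

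The matrix held 15707 barcodes and 125100595 UMIs. A UMI (unique molecular identifier) is a tag that marks a captured RNA molecule, so that molecules and not reads are counted. The median depth was 2608 UMIs and 689 genes per cell, and no cell had fewer than 1374 UMIs. The 8 genes together had 106148 UMIs, from 53 for *Chrm1* to 37329 for *Slc12a2*.

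Cells were grouped into 21 clusters without using the 8 genes or the other fluid secretion genes, and 17 clusters were named from marker genes into 10 classes. Serous acinar-like cells (2323 cells, cluster 1) were led by *Scgb2b26*, *Mucl2* and *Car6*. Mucous acinar-like cells (355 cells, cluster 13) were led by *Muc19* and *A2ml1* and also carried all 4 Dcpp-rich markers. Dcpp-rich cells (511 cells, cluster 10) were named after the Dcpp secretory genes that led them, and also carried 3 of the 8 mucous acinar markers. Ductal epithelial-like cells (2832 cells) came from 4 clusters, namely cluster 3 with *Ascl3* and *Foxi1*, clusters 6 and 11 with kallikrein genes, and cluster 8 with *Esp4*, *Slc9a3*, *Slc13a2* and 4 of the 5 markers of Smgc-rich and intercalated duct cells. The other classes were basal-like (172 cells, with 6 of the 22 ductal markers beside 4 of the 5 basal ones), vascular-like (712), mesenchymal-like (563), mural-like (84), myeloid-like (1061) and lymphoid-like cells (1236). The mural-like cluster also had 3 of the 6 myoepithelial markers, *Acta2*, *Cnn1* and *Myh11*. Clusters 0, 2, 12 and 14, with 5858 cells, stayed unnamed. Cluster 0 held Dcpp transcripts and cluster 2 serous and mitochondrial transcripts, at a median of 326 and 427 genes per cell, cluster 12 held myeloid and serous transcripts, and cluster 14 was led by *Smgc* and carried 3 of the 22 ductal markers.

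A level is the number of UMIs of a gene summed over a class, per 10000 UMIs of that class, with an exact Poisson 95% interval in parentheses. All intervals in this text cover counting error only, not the spread between animals. Levels are not compared between genes, since the number of 3′ tags per transcript differs from gene to gene. In acinar cells this scale is dominated by secretory transcripts. The 11 genes with at least 0.5% of all UMIs, among them *Mucl2*, *Scgb1b27*, *Dcpp3* and the duct gene *Klk1*, took 76.2% of the UMIs of the matrix. They took 90.7% of the UMIs of serous acinar-like cells, 85.6% of those of Dcpp-rich cells and 72.9% of those of mucous acinar-like cells, against 21.1% in ductal epithelial-like and 16.5% in lymphoid-like cells. Every other gene is diluted by that much, and levels are therefore also given per 10000 UMIs without these 11 dominant transcripts, and in places as UMIs per cell. The median depth was 23483 UMIs in serous acinar-like, 24670 in Dcpp-rich, 5015 in mucous acinar-like, 2781.5 in ductal epithelial-like and 1866.5 in lymphoid-like cells.

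By level in all UMIs, 3 of the 8 genes were highest in an acinar class (serous, mucous or Dcpp-rich), where 2.33% of 13704 genes with at least 20 UMIs were. These were *Aqp5*, *Kcnn4* and *Gjb1*, all highest in mucous acinar-like cells. *Slc12a2*, *Atp1b1*, *Chrm3* and *Chrm1* were highest in ductal epithelial-like cells and *Ano1* in mural-like cells. For *Gjb1* the highest class overlapped with the next in all UMIs, and for *Chrm3* and *Chrm1* it did so on all 3 scales used here. Without the dominant transcripts 5 of the 8 were highest in an acinar class, against 19.9% of all genes, because *Chrm3* and *Chrm1* moved to serous and mucous acinar-like cells. By UMIs per cell it was also 5 of 8, against 16.9%. In all UMIs the count was 5 of 8 too when 10 principal components were used. *Slc12a2* and *Atp1b1* stayed highest in ductal epithelial-like cells on all 3 scales. *Ano1* stayed highest in mural-like cells among the classes, but by UMIs per cell these overlapped with basal-like cells, at 0.345 and 0.337, and duct cluster 8 had 0.676.

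**Figure D1:**
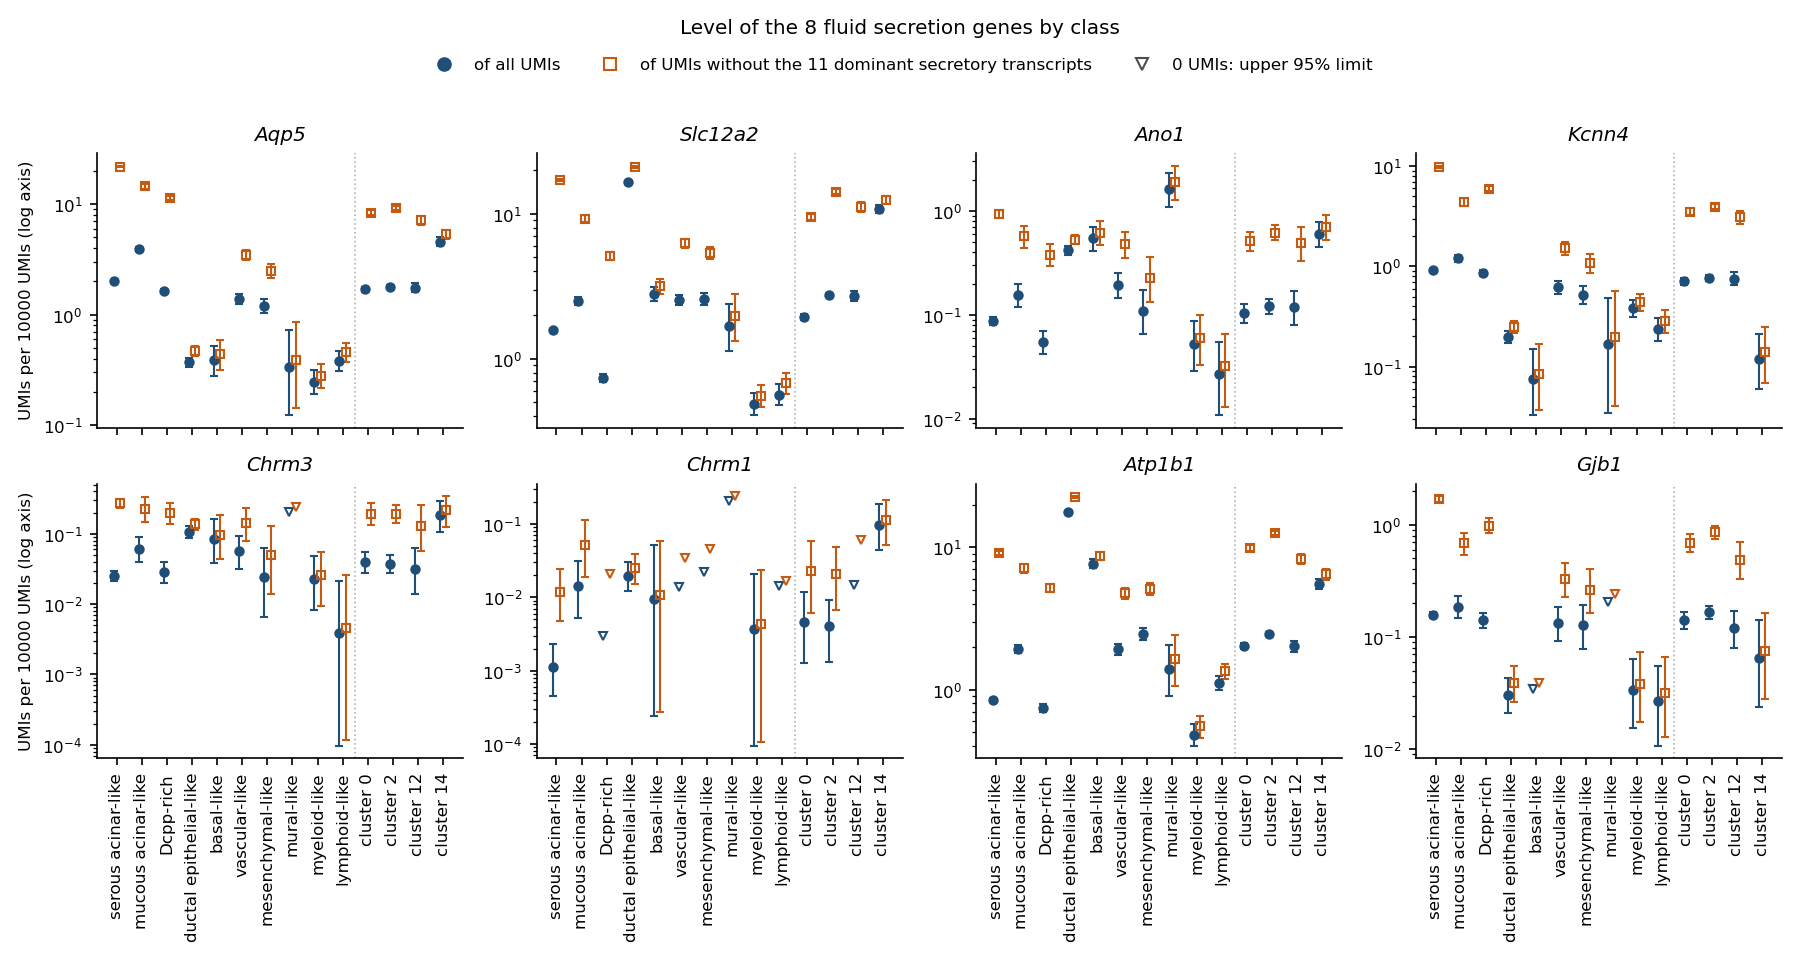
Level of each of the 8 genes (log axis) in the 10 named classes and, right of the dotted line, the 4 unnamed clusters, per 10000 of all UMIs (filled circles) and per 10000 UMIs without the 11 dominant transcripts (open squares), with exact Poisson 95% intervals and, for 0 UMIs, the upper limit as a triangle. *Aqp5*, *Kcnn4* and *Gjb1* are high in the acinar classes on both scales, *Slc12a2* and *Atp1b1* in ductal epithelial-like cells, and *Ano1* in mural-like cells.

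*Slc12a2* encodes the sodium-potassium-chloride cotransporter that loads acinar cells with chloride. Its level in all UMIs was 16.7 (16.4 to 16.9) in ductal epithelial-like cells. It was 2.80 (2.49 to 3.13) in basal-like, 2.59 (2.35 to 2.85) in mesenchymal-like, 2.54 (2.35 to 2.74) in vascular-like, 2.51 (2.37 to 2.67) in mucous acinar-like and 1.67 (1.13 to 2.39) in mural-like cells. The intervals of basal-like to mucous acinar-like cells overlapped, so these 4 classes could not be ordered. Mural-like cells overlapped with mesenchymal-like, vascular-like, mucous acinar-like and serous acinar-like cells. Serous acinar-like cells had 1.58 (1.55 to 1.61), Dcpp-rich cells 0.733 (0.686 to 0.782), lymphoid-like cells 0.565 (0.478 to 0.664) and myeloid-like cells 0.486 (0.406 to 0.577). With the dominant transcripts left out the gap between ducts and serous acini nearly closed, at 21.1 (20.8 to 21.5) for the ducts and 17.1 (16.7 to 17.4) for the serous acini. The mucous acinar-like level was then 9.26 (8.71 to 9.84) and the Dcpp-rich level 5.09 (4.76 to 5.43). The ducts as 1 class had more *Slc12a2* than serous acini on both scales, and Dcpp-rich cells were lowest of the 3 secretory classes on both.

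Within the ducts *Slc12a2* was far from even. Cluster 3, the *Ascl3* and *Foxi1* cluster, had 33.3 (32.6 to 33.9) per 10000 UMIs, with a UMI in 99.0% of its cells. Cluster 11, a kallikrein cluster that also carried *Ascl3* and *Foxi1*, had 21.2 (20.6 to 21.7). Its median was 1767 genes per cell, against 1096.5 in cluster 3 and 1000.5 in cluster 6. Whether cluster 11 holds doublets of such cells was not tested, since the doublet caller cannot be taken to have worked. Clusters 8 and 6 had 5.58 (5.28 to 5.89) and 3.00 (2.79 to 3.23). Cluster 3 lay 11.1-fold (10.3 to 11.96) above cluster 6, a kallikrein cluster, and 1.57-fold (1.52 to 1.63) above cluster 11. Without the dominant transcripts it lay 9.25-fold (8.58 to 9.99) above cluster 6 and 4.58-fold (4.32 to 4.85) above cluster 8. It then lay 1.49-fold (1.44 to 1.54) above cluster 11. In all UMIs all 4 clusters lay above serous acinar-like cells. Without the dominant transcripts clusters 3 and 11 lay above serous acinar-like cells and clusters 8 and 6 below them. All 4 clusters differed beyond counting error. The unnamed *Smgc*-led cluster 14 had 10.7 (10.1 to 11.4), between the duct clusters.

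Cells with a UMI of *Slc12a2* made up 83.6% (82.0 to 85.0, exact binomial) of serous acinar-like and 73.9% (72.2 to 75.5) of ductal epithelial-like cells, against 8.33% (6.85 to 10.0) of lymphoid-like cells, the reference for background. The medians of UMIs other than the dominant transcripts were alike in serous acinar-like and ductal epithelial-like cells, 2295 and 2299, while the medians of all UMIs were not. With every cell thinned to 1000 of all UMIs the order turned, to 14.98% of serous acinar-like, 59.3% of ductal epithelial-like and 3.80% of lymphoid-like cells. Thinning keeps the dominant transcripts in place, so it turns the order as the scale of all UMIs does, and no order between acini and ducts is read from the shares.

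*Atp1b1* encodes the beta-1 subunit of the sodium pump, which maintains the sodium gradient that drives *Slc12a2*. In all UMIs its level was 17.8 (17.6 to 18.1) in ductal epithelial-like and 7.67 (7.16 to 8.22) in basal-like cells. It was 2.48 (2.24 to 2.73) in mesenchymal-like, 1.93 (1.80 to 2.07) in mucous acinar-like, 1.93 (1.76 to 2.10) in vascular-like and 1.39 (0.901 to 2.06) in mural-like cells. Ducts and basal cells stood apart from all other classes, mucous acinar-like, vascular-like and mural-like cells overlapped, and mural-like cells also with lymphoid-like cells. Lymphoid-like cells had 1.12 (0.995 to 1.25), serous acinar-like cells 0.847 (0.824 to 0.870), Dcpp-rich cells 0.744 (0.697 to 0.794) and myeloid-like cells 0.482 (0.403 to 0.573). On the scale without the dominant transcripts ductal epithelial-like cells had 22.6 (22.3 to 23.0), serous acinar-like 9.13 (8.89 to 9.38), basal-like 8.68 (8.09 to 9.30), mucous acinar-like 7.11 (6.63 to 7.61) and Dcpp-rich cells 5.17 (4.84 to 5.52). The ducts stayed highest, and serous acinar-like cells rose from the lower classes to the level of basal-like cells.

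The 4 duct clusters were closer to each other for *Atp1b1* than for *Slc12a2*. Its level was 22.8 (22.2 to 23.4) in cluster 11, 20.03 (19.5 to 20.6) in cluster 6, 18.1 (17.6 to 18.6) in cluster 3 and 10.1 (9.69 to 10.5) in cluster 8. Cluster 11 lay 2.26-fold (2.15 to 2.37) above cluster 8. Clusters 11 and 6, without the dominant transcripts, no longer differed, at a ratio of 1.00 (0.966 to 1.04). Cluster 6 was therefore high for the pump subunit and low for the cotransporter.

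Cells with a UMI of *Atp1b1* made up 94.99% (94.1 to 95.8) of ductal epithelial-like and 73.9% (72.1 to 75.7) of serous acinar-like cells. The lowest class, myeloid-like cells at a median of 2221 UMIs, had 7.35% (5.85 to 9.09), and it stands in for lymphoid-like cells here because lymphocytes are known to use this subunit. At 1000 UMIs per cell the shares were 77.7% of ductal epithelial-like, 8.82% of serous acinar-like and 3.20% of myeloid-like cells.

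*Ano1* encodes the calcium-activated chloride channel of the luminal acinar membrane, and it is also known in smooth muscle. By level in all UMIs it was highest in mural-like cells, at 1.62 (1.08 to 2.32) from 29 UMIs. The name of this class is a judgement, since it carried 4 of the 5 mural and 3 of the 6 myoepithelial markers. Its leading genes held *Acta2* and *Myh11* of the myoepithelial list and *Rgs5* of the mural one. Basal-like cells had 0.546 (0.415 to 0.706) and ductal epithelial-like cells 0.417 (0.378 to 0.458), which overlapped. Vascular-like cells had 0.194 (0.144 to 0.255), mucous acinar-like cells 0.154 (0.119 to 0.196) and mesenchymal-like cells 0.109 (0.0646 to 0.172). Each of these overlapped with its neighbour in the order. Serous acinar-like cells had 0.0867 (0.0796 to 0.0943), Dcpp-rich cells 0.0547 (0.0424 to 0.0695), myeloid-like cells 0.0523 (0.0286 to 0.0878) and lymphoid-like cells 0.0267 (0.0107 to 0.0551). Once the dominant transcripts were left out mural-like cells kept the highest level among the classes, 1.90 (1.27 to 2.72), and serous acinar-like cells came next, at 0.935 (0.858 to 1.02). Basal-like cells then had 0.618 (0.469 to 0.799), mucous acinar-like cells 0.568 (0.438 to 0.723), ductal epithelial-like cells 0.528 (0.479 to 0.581) and Dcpp-rich cells 0.380 (0.295 to 0.483). The direction between serous acini and the ducts, taken as 1 class, thus turned with the scale.

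The ductal level of *Ano1* came almost wholly from cluster 8, which held 382 of the 421 ductal UMIs. Its level there was 1.64 (1.48 to 1.81) in all UMIs and 2.42 (2.19 to 2.68) without the dominant transcripts, which overlapped with mural-like cells on both scales. Clusters 6, 11 and 3 had 0.0743 (0.0440 to 0.117), 0.0609 (0.0341 to 0.100) and 0.0208 (0.00762 to 0.0452). Cluster 8 lay 22.1-fold (13.8 to 37.7) above cluster 6 and 79.0-fold (36.0 to 217) above cluster 3. It was also the only duct cluster above serous acinar-like cells, and was so on both scales. In all UMIs clusters 6 and 11 overlapped with serous acinar-like cells and cluster 3 lay below them. Without the dominant transcripts cluster 8 lay 24.05-fold above cluster 6, 33.2-fold above cluster 11 and 102.9-fold above cluster 3. On that scale these 3 clusters lay below serous acinar-like cells. The cluster with the most cotransporter thus had the lowest value of *Ano1* among the ducts, with an interval that overlapped those of clusters 11 and 6. Cluster 8 is also the duct cluster with *Smgc*, *Gstt1*, *Kit* and *Nkd2* of the Smgc-rich and intercalated duct markers, and the *Smgc*-led cluster 14 had 0.595 (0.448 to 0.775) in all UMIs.

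Cells with a UMI of *Ano1* made up 19.6% (18.03 to 21.3) of serous acinar-like, 8.83% (7.81 to 9.93) of ductal epithelial-like and 0.566% (0.228 to 1.16) of lymphoid-like cells, and 28.6% (19.2 to 39.5) of the 84 mural-like cells. At 1000 UMIs per cell it was 0.861% of serous acinar-like, 3.39% of ductal epithelial-like, 17.9% of mural-like and 0.243% of lymphoid-like cells. The order of acini and ducts turned with thinning here too, and none is read from the shares. In cluster 8 the share was 38.2% (34.2 to 42.4) as counted and 15.6% (12.7 to 18.8) at 1000 UMIs.

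*Kcnn4* encodes a calcium-activated potassium channel whose opening keeps the driving force for chloride exit, and it is also known in lymphocytes and macrophages. Per 10000 of all UMIs it had 1.20 (1.10 to 1.31) in mucous acinar-like, 0.914 (0.890 to 0.938) in serous acinar-like and 0.858 (0.807 to 0.911) in Dcpp-rich cells. Vascular-like cells had 0.616 (0.525 to 0.719), mesenchymal-like cells 0.521 (0.417 to 0.644) and myeloid-like cells 0.385 (0.314 to 0.467). Serous acinar-like and Dcpp-rich cells overlapped, and so did vascular-like, mesenchymal-like and myeloid-like cells, each with the next. Lymphoid-like cells had 0.237 (0.182 to 0.304), ductal epithelial-like cells 0.198 (0.171 to 0.227), mural-like cells 0.167 (0.0345 to 0.488) and basal-like cells 0.0753 (0.0325 to 0.148). Leaving out the dominant transcripts, the acinar order was serous 9.85 (9.60 to 10.1), Dcpp-rich 5.96 (5.60 to 6.33) and mucous 4.42 (4.04 to 4.82), against 0.251 (0.217 to 0.288) in ductal epithelial-like cells. *Kcnn4* was thus acinar on both scales, while the subtype that led changed from mucous to serous.

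Within the ducts *Kcnn4* was highest in cluster 8, at 0.546 (0.455 to 0.649), with 0.132 (0.0903 to 0.186) in cluster 6, 0.0771 (0.0464 to 0.120) in cluster 11 and 0.0762 (0.0477 to 0.115) in cluster 3. Cluster 14 had 0.119 (0.0594 to 0.213), far below the acinar classes. The share of cells with a UMI was 75.1% (73.3 to 76.8) among serous acinar-like and 4.91% (4.14 to 5.77) among ductal epithelial-like cells. It was 4.65% (2.03 to 8.96) among basal-like cells, the lowest class by level, at a median of 4720 UMIs. By level the ducts lay above these cells. At 1000 UMIs per cell the shares were 9.51%, 1.41% and 0.581%.

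*Aqp5* encodes aquaporin-5, the water channel of the luminal acinar membrane. In all UMIs its level was 3.91 (3.73 to 4.11) in mucous acinar-like, 2.02 (1.99 to 2.06) in serous acinar-like and 1.64 (1.56 to 1.71) in Dcpp-rich cells, and these 3 did not overlap. Vascular-like cells had 1.40 (1.26 to 1.55) and mesenchymal-like cells 1.19 (1.03 to 1.37), which overlapped with each other. Basal-like cells had 0.386 (0.277 to 0.524), lymphoid-like cells 0.382 (0.311 to 0.465), ductal epithelial-like cells 0.370 (0.334 to 0.410), mural-like cells 0.334 (0.123 to 0.727) and myeloid-like cells 0.247 (0.191 to 0.314). Of these, basal-like to mural-like cells overlapped. Myeloid-like cells lay below the ducts and overlapped with basal-like, lymphoid-like and mural-like cells. As a class the named ducts were therefore no higher for *Aqp5* than lymphoid-like cells. Cluster 14, given below, carried 3 of the 22 ductal markers but is not part of this class. The order among acini turned without the dominant transcripts, to 21.8 (21.4 to 22.2) in serous, 14.4 (13.7 to 15.1) in mucous and 11.4 (10.9 to 11.9) in Dcpp-rich cells, against 0.469 (0.423 to 0.519) in ductal epithelial-like and 0.458 (0.372 to 0.557) in lymphoid-like cells.

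The highest level of *Aqp5* in all UMIs was outside the named classes, in the *Smgc*-led cluster 14, at 4.58 (4.15 to 5.04). Without the dominant transcripts cluster 14 had 5.34 (4.84 to 5.87), below every acinar class. By UMIs per cell it was also below them, at 1.82, against 5.51 in serous, 4.65 in mucous and 3.92 in Dcpp-rich cells. That cluster lacks *Kcnn4* at an acinar level but carries *Slc12a2*, so the 3 genes did not run together there. Among the duct clusters cluster 8 had 0.911 (0.792 to 1.04), and clusters 3, 6 and 11 had 0.253 (0.198 to 0.318), 0.243 (0.185 to 0.314) and 0.122 (0.0822 to 0.174). Cluster 8 lay 7.48-fold (5.09 to 11.4) above cluster 11, but it also carried more serous acinar transcripts than the other duct clusters, as given below. *Aqp5* had a UMI in 87.7% (86.3 to 89.0) of serous acinar-like, 8.16% (7.17 to 9.23) of ductal epithelial-like and 6.31% (5.02 to 7.81) of lymphoid-like cells. At 1000 UMIs per cell the shares were 18.5%, 2.68% and 2.83%, so that ducts and lymphoid-like cells did not differ.

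**Figure D2:**
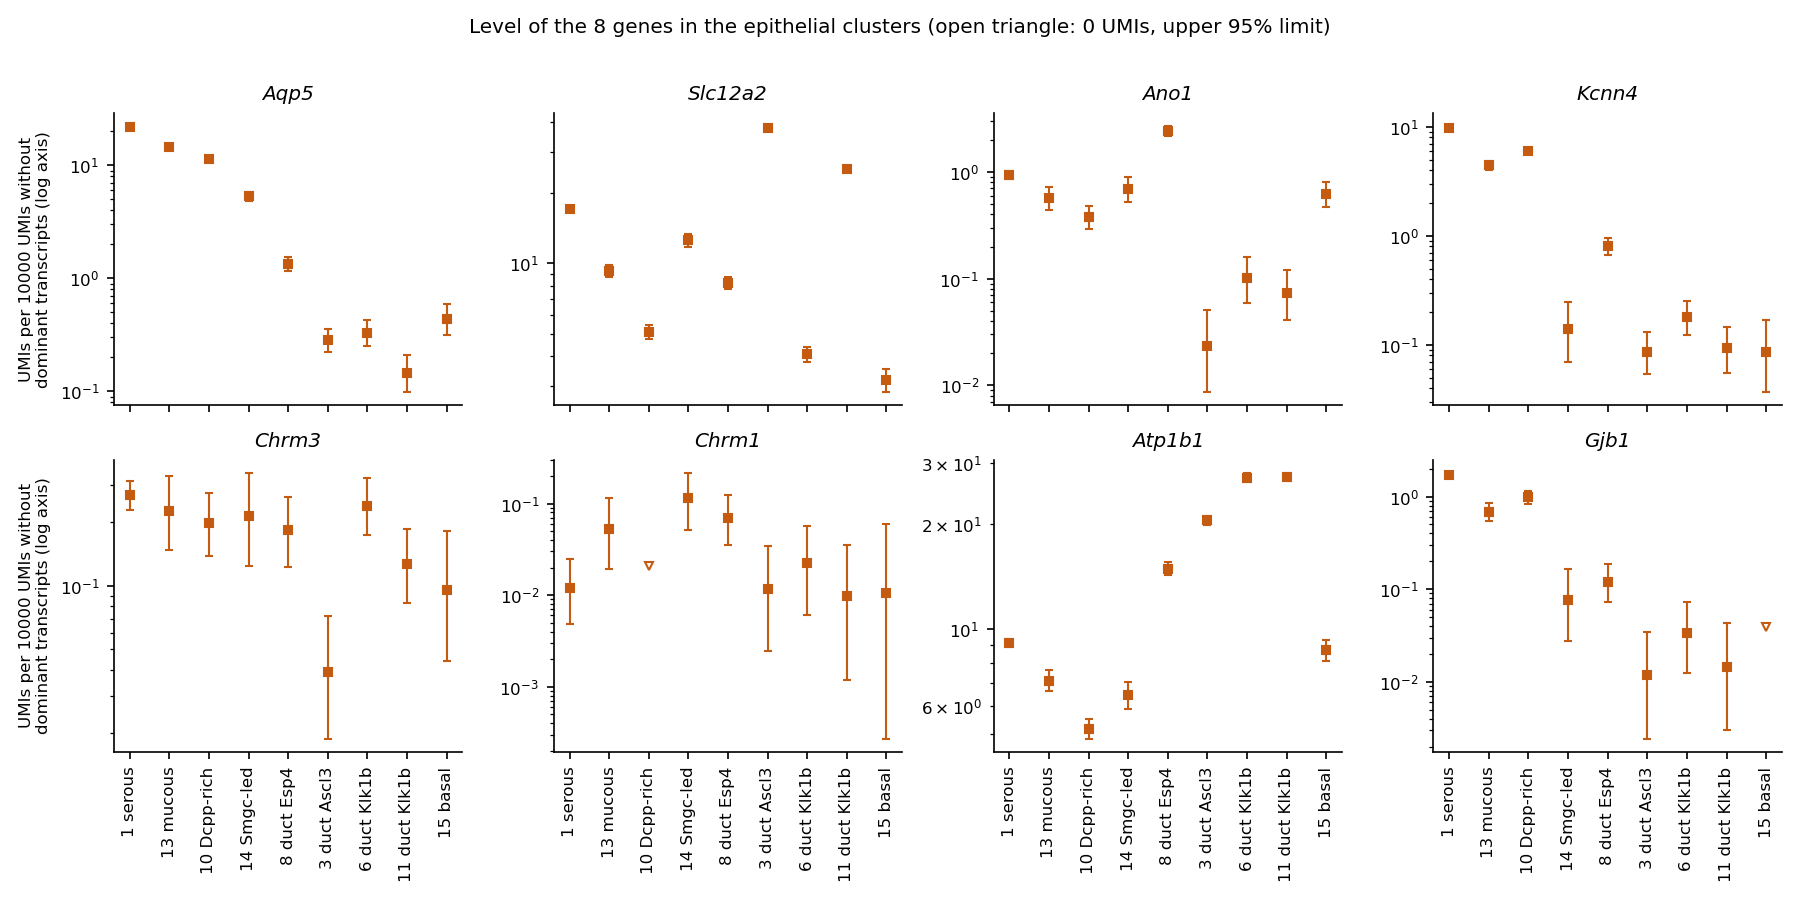
Level of the 8 genes per 10000 UMIs without the 11 dominant transcripts (log axis) in the 9 epithelial clusters, with exact Poisson 95% intervals and upper limits for 0 UMIs as triangles. Among the duct clusters, *Slc12a2* is highest in cluster 3, *Ano1*, *Aqp5*, *Kcnn4* and *Gjb1* in cluster 8, and *Atp1b1* in clusters 11 and 6, which overlap.

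*Chrm3* and *Chrm1* encode the muscarinic acetylcholine receptors M3 and M1, through which parasympathetic nerves start secretion. *Chrm3* had 468 UMIs in the whole matrix. Per 10000 of all UMIs it had 0.107 (0.0877 to 0.129) in ductal epithelial-like cells, 0.0847 (0.0387 to 0.161) in basal-like, 0.0616 (0.0403 to 0.0903) in mucous acinar-like and 0.0571 (0.0319 to 0.0941) in vascular-like cells. Each overlapped with the next. Dcpp-rich cells had 0.0286 (0.0199 to 0.0398), serous acinar-like cells 0.0250 (0.0213 to 0.0292), mesenchymal-like cells 0.0242 (0.00660 to 0.0621) and myeloid-like cells 0.0224 (0.00823 to 0.0488). Lymphoid-like cells had 1 UMI, a level of 0.00382 (9.67e-05 to 0.0213), and mural-like cells had 0 UMIs, which allows up to 0.205. On the scale without the dominant transcripts serous acinar-like cells led with 0.270 (0.229 to 0.315), followed by mucous acinar-like cells with 0.227 (0.148 to 0.333), Dcpp-rich cells with 0.199 (0.138 to 0.276), vascular-like cells with 0.140 (0.0786 to 0.232) and ductal epithelial-like cells with 0.136 (0.111 to 0.164). The 3 secretory classes overlapped, so no acinar subtype stood out for the M3 receptor at this depth. The unnamed *Smgc*-led cluster 14 had 17 UMIs of *Chrm3*, a level of 0.184 (0.107 to 0.295) in all UMIs, higher in value than any class and overlapping with the ducts.

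Within the ducts *Chrm3* was 0.177 (0.128 to 0.239) in cluster 6, 0.125 (0.0834 to 0.179) in cluster 8, 0.106 (0.0689 to 0.155) in cluster 11 and 0.0346 (0.0166 to 0.0637) in cluster 3. Cluster 6 lay 5.13-fold (2.54 to 11.4) above cluster 3, the cotransporter-rich cluster, and did not differ from cluster 8, at a ratio of 1.42 (0.869 to 2.37). The M3 gene had a UMI in 6.33% (5.37 to 7.40) of serous acinar-like, 3.60% (2.95 to 4.36) of ductal epithelial-like and 0.0809% (0.00205 to 0.450) of lymphoid-like cells. At 1000 UMIs per cell the order of the acini and ducts turned, with 0.344%, 1.06% and 0 of 1236 cells, which allows up to 0.298%.

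*Chrm1* was near the limit of detection, with 53 UMIs in 52 cells. Of these 20 UMIs were in ductal epithelial-like cells, a level of 0.0198 (0.0121 to 0.0306), 11 of them in cluster 8. Mucous acinar-like cells had 6 UMIs, a level of 0.0142 (0.00522 to 0.0310), basal-like cells 1, a level of 0.00942 (0.000238 to 0.0525), myeloid-like cells 1, a level of 0.00374 (9.46e-05 to 0.0208), and serous acinar-like cells 7, a level of 0.00111 (0.000445 to 0.00228). Serous acinar-like cells were the only class with UMIs whose interval fell wholly below that of the ducts. Vascular-like, mesenchymal-like, mural-like, lymphoid-like and Dcpp-rich cells had 0 UMIs, with upper limits of 0.0140, 0.0224, 0.205, 0.0141 and 0.00301. The highest level was in the *Smgc*-led cluster 14, with 9 UMIs in its 233 cells, or 0.0974 (0.0445 to 0.185). Leaving out the dominant transcripts, mucous acinar-like cells had 0.0524 (0.0192 to 0.114), ductal epithelial-like cells 0.0251 (0.0153 to 0.0388) and serous acinar-like cells 0.0119 (0.00480 to 0.0246), and each overlapped with the next. Cells with a UMI were 0.301% (0.121 to 0.620) of serous acinar-like, 0.671% (0.404 to 1.05) of ductal epithelial-like and 0 of 1236 lymphoid-like cells, which allows up to 0.298%.

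*Gjb1* encodes connexin 32, a gap junction protein of acinar and other exocrine cells. Its level in all UMIs was 0.185 (0.146 to 0.231) in mucous acinar-like, 0.157 (0.147 to 0.167) in serous acinar-like, 0.141 (0.121 to 0.164) in Dcpp-rich, then 0.133 (0.0927 to 0.185) in vascular-like and then 0.127 (0.0788 to 0.195) in mesenchymal-like cells, all overlapping in turn. Myeloid-like cells had 0.0336 (0.0154 to 0.0639), ductal epithelial-like cells 0.0307 (0.0208 to 0.0435) and lymphoid-like cells 0.0267 (0.0107 to 0.0551). The ducts as 1 class were again at the level of the immune classes. Of the 31 ductal UMIs 19 were in cluster 8. In all UMIs it lay 3.30-fold (1.27 to 10.1) above cluster 6 and 7.86-fold (2.31 to 41.5) above cluster 3. Basal-like and mural-like cells had 0 UMIs, which allows up to 0.0347 and 0.205. With the dominant transcripts left out serous acinar-like cells had 1.69 (1.59 to 1.80), Dcpp-rich cells 0.982 (0.841 to 1.14), mucous acinar-like cells 0.681 (0.538 to 0.850) and ductal epithelial-like cells 0.0389 (0.0264 to 0.0552). On that scale the 3 secretory classes stood apart from the ducts, and serous acinar-like cells from the other 2, while Dcpp-rich and mucous acinar-like cells overlapped. Cells with a UMI were 32.1% (30.2 to 34.0) of serous acinar-like, 0.989% (0.658 to 1.43) of ductal epithelial-like and 0.485% (0.178 to 1.05) of lymphoid-like cells, and at 1000 UMIs per cell 1.89%, 0.388% and 0.243%.

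The levels of *Aqp5*, *Kcnn4* and *Gjb1* in vascular-like and mesenchymal-like cells came with secretory transcripts. All 10 serous acinar markers were found in both classes, with *Mucl2* most abundant, at a summed level of 4672 and 4872 per 10000 UMIs, against 1517 in lymphoid-like, 4691 in mucous acinar-like, 382 in Dcpp-rich and 9051 in serous acinar-like cells. In mural-like cells 9 of the 10 were found, at 1358, with *Lman1l* at 0. Whether these transcripts and the 3 genes reached the cells as free RNA was not tested. As an alternative chosen after seeing the data, each gene was counted per 10000 UMIs of the dominant transcripts, a ratio that stays the same where a gene and those transcripts come together.

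*Aqp5* had 2.23 UMIs (2.19 to 2.27) per 10000 dominant UMIs in serous acinar-like, 2.35 (2.12 to 2.61) in vascular-like, 2.31 (2.00 to 2.65) in mesenchymal-like, 2.31 (1.88 to 2.81) in lymphoid-like and 1.99 (1.54 to 2.53) in myeloid-like cells. The unnamed clusters 0, 2 and 12 had 2.13 (2.02 to 2.24), 2.21 (2.12 to 2.31) and 2.31 (2.10 to 2.54). These classes and clusters overlapped with the serous ratio as a whole, but within the lymphoid-like class cluster 17 lay above it, at 4.90 (2.99 to 7.57) from 20 UMIs. Mucous acinar-like cells, at 5.37 (5.12 to 5.64), basal-like cells, at 3.33 (2.39 to 4.52), and cluster 14, at 32.2 (29.2 to 35.4), lay above it. Dcpp-rich cells, at 1.91 (1.83 to 2.00), lay below it. The dominant transcripts include the duct gene *Klk1*, so the duct clusters are given singly. For *Aqp5* cluster 8 lay above the serous ratio, at 2.82 (2.46 to 3.23), cluster 3 overlapped with it, at 2.15 (1.69 to 2.71), and the kallikrein clusters 6 and 11 lay below it, at 0.926 (0.705 to 1.20) and 0.734 (0.495 to 1.05). *Kcnn4* had a ratio of 1.01 (0.981 to 1.03) in serous acinar-like, 1.00 (0.942 to 1.06) in Dcpp-rich and 1.04 (0.885 to 1.21) in vascular-like cells, and the ratio in mesenchymal-like cells was 1.01 (0.806 to 1.24). Above the serous ratio of *Kcnn4* lay myeloid-like cells, at 3.10 (2.53 to 3.76), lymphoid-like cells, at 1.43 (1.10 to 1.84), mucous acinar-like cells, at 1.65 (1.51 to 1.80), and duct cluster 8, at 1.69 (1.41 to 2.01). Duct cluster 3 overlapped with it, at 0.649 (0.407 to 0.982), and clusters 6 and 11 lay below it, at 0.502 (0.344 to 0.709) and 0.465 (0.280 to 0.726). The ratio of *Gjb1* was 0.173 (0.162 to 0.184) in serous acinar-like, 0.165 (0.141 to 0.192) in Dcpp-rich, 0.253 (0.152 to 0.395) in duct cluster 8, 0.224 (0.156 to 0.312) in vascular-like and 0.162 (0.0651 to 0.333) in lymphoid-like cells, all overlapping with the serous ratio, and mucous acinar-like cells lay above it, at 0.254 (0.201 to 0.317).

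*Slc12a2*, *Atp1b1* and *Ano1* lay above their serous ratio in several classes. *Slc12a2* had 1.75 UMIs (1.71 to 1.78) per 10000 dominant UMIs in serous acinar-like cells but 4.28 (3.96 to 4.62) in vascular-like, 3.42 (2.89 to 4.02) in lymphoid-like and 78.9 (77.7 to 80.1) in ductal epithelial-like cells. *Atp1b1* had 0.933 (0.909 to 0.959) in serous acinar-like against 3.25 (2.97 to 3.55) in vascular-like, 6.77 (6.02 to 7.60) in lymphoid-like and 84.4 (83.2 to 85.7) in ductal epithelial-like cells. *Ano1* had 0.0956 (0.0877 to 0.104) in serous acinar-like against 10.9 (7.32 to 15.7) in mural-like and 1.97 (1.79 to 2.17) in ductal epithelial-like cells, but overlapped with it in lymphoid-like cells, at 0.162 (0.0651 to 0.333). *Chrm3* had 0.0276 (0.0234 to 0.0322) in serous acinar-like against 0.506 (0.415 to 0.611) in ductal epithelial-like cells, and overlapped with the serous ratio in mesenchymal-like cells, at 0.0468 (0.0128 to 0.120).

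**Figure D3:**
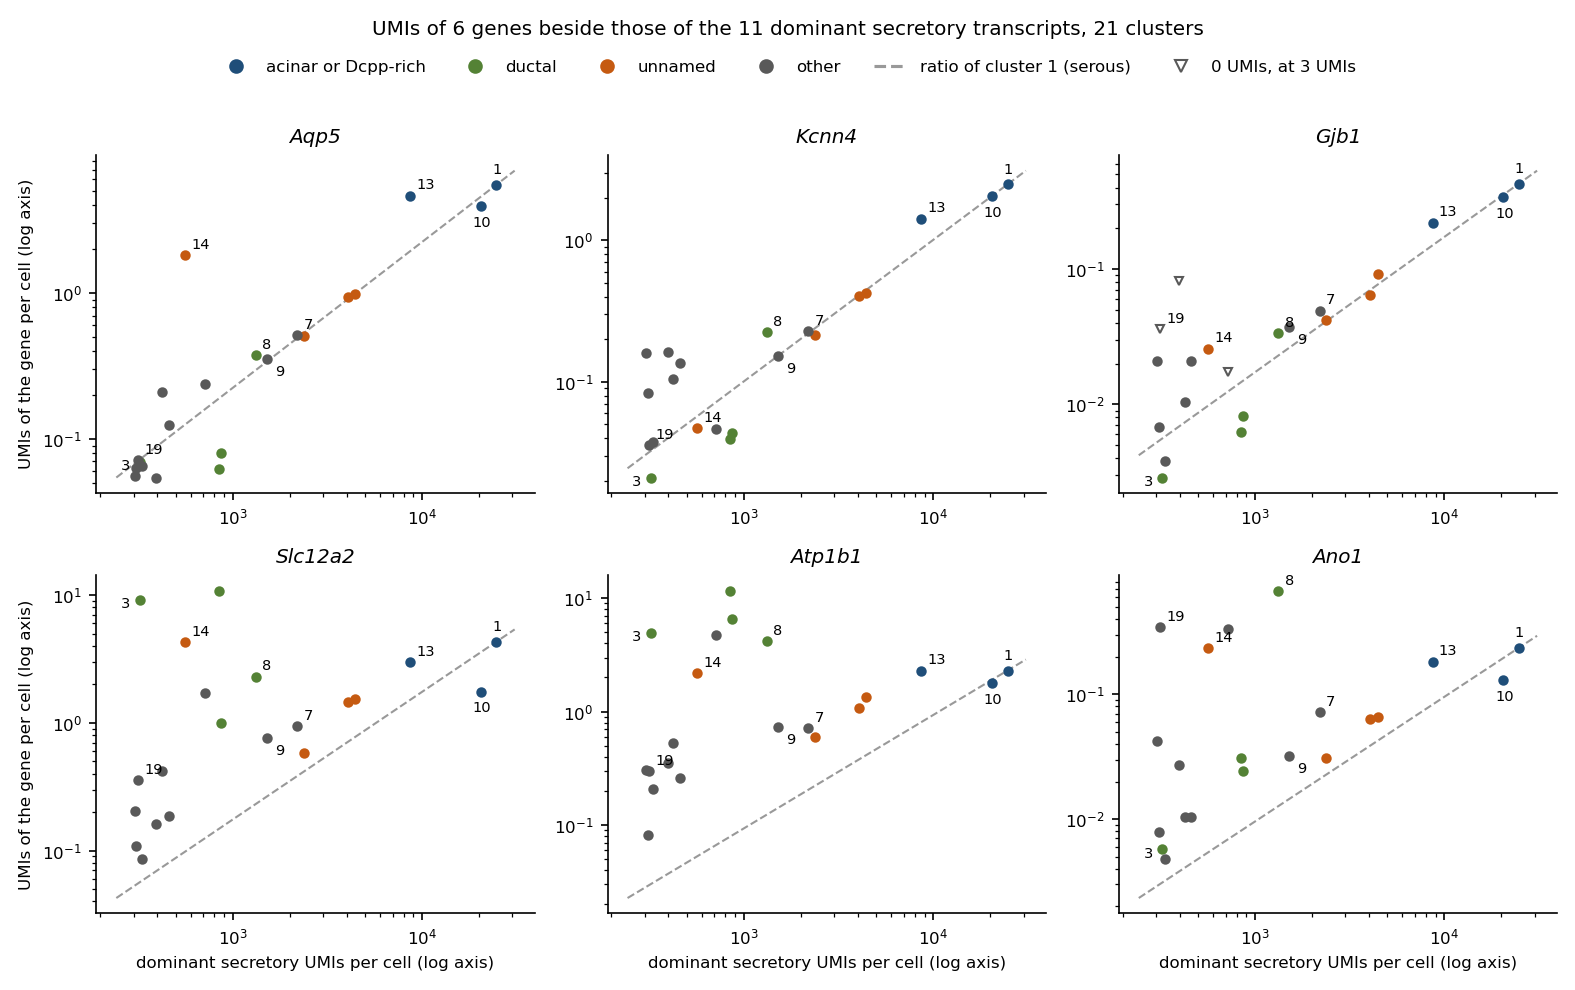
UMIs per cell of 6 of the genes against UMIs per cell of the 11 dominant secretory transcripts in the 21 clusters (both log axes), with the ratio of serous acinar-like cluster 1 as a dashed line and some clusters labelled by number. Most non-ductal clusters lie near the line for *Aqp5*, with clusters 13 and 14 above it, whereas duct clusters lie far above it for *Slc12a2* and *Atp1b1*.

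Acinar and duct cells were compared directly by the log2 ratio of levels, with an exact binomial interval of the ratio. A gene counted as higher or lower when its ratio was at least 2-fold and its interval excluded equality, and genes with at least 20 UMIs in both classes together were tested. In all UMIs 3 of the 8 genes were higher in serous acinar-like than in ductal epithelial-like cells, against 0.929% of 11841 genes, and 5 were lower, against 95.6%. The dominant transcripts shift this contrast as a whole, and the median of all genes was a log2 ratio of -3.48. Leaving them out, the median was -0.39, with 3 of 8 genes higher, against 11%, and 1 lower, against 28.2%. The 3 higher genes were *Aqp5*, *Kcnn4* and *Gjb1* on both scales.

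*Aqp5* had a log2 ratio of 2.45 (2.30 to 2.60) in all UMIs and 5.54 (5.39 to 5.69) without the dominant transcripts, which is 5.47-fold and 46.5-fold. *Kcnn4* had 2.21 (2.00 to 2.42) and 5.29 (5.09 to 5.51), and *Gjb1* had 2.35 (1.84 to 2.92) and 5.44 (4.93 to 6.01). Relative to the median of all genes the 3 stood at 5.93, 5.68 and 5.83. By UMIs per cell they stood at 5.38, 5.14 and 5.28. With the UMIs per cell of lymphoid-like cells also subtracted, as a stand-in for free RNA, they stood at 6.73, 6.90 and 6.31. The size and the order of the 3 ratios thus changed with that subtraction. *Kcnn4* is also known in lymphocytes, so for this gene the amount subtracted cannot be told from RNA of those cells. *Atp1b1* was lower in serous acini in all UMIs, at -4.40 (-4.44 to -4.35), and without the dominant transcripts, at -1.31 (-1.35 to -1.27), but relative to the median it was within 2-fold, at -0.92.

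*Slc12a2* was at -3.40 (-3.43 to -3.36) in all UMIs but at -0.31 (-0.34 to -0.27) without the dominant transcripts and 0.08 relative to the median. With the ducts as 1 class it thus moved as the typical gene did. Single duct clusters lay on both sides of serous acini without the dominant transcripts. *Ano1* and *Chrm3* changed direction with the scale. *Ano1* was at -2.26 (-2.45 to -2.08) in all UMIs and 0.82 (0.64 to 1.01) without the dominant transcripts, or 1.21 relative to the median. *Chrm3* was at -2.10 (-2.46 to -1.73) and 0.99 (0.63 to 1.36), or 1.38 relative to the median. *Chrm1*, from 7 and 20 UMIs, was at -4.16 (-5.64 to -2.86) and, without the dominant transcripts, at -1.07 (-2.56 to 0.23), which did not exclude equality.

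Between the acinar subtypes the genes differed less. In mucous against serous acinar-like cells 2 of 7 tested genes, *Chrm3* and *Atp1b1*, were higher in all UMIs, against 77.4% of 10130 genes, and 0 were lower, against 0.109%. *Chrm3* was at 1.30 (0.64 to 1.91) and *Atp1b1* at 1.19 (1.08 to 1.29), but both fell below 0 without the dominant transcripts, at -0.25 (-0.91 to 0.36) and -0.36 (-0.47 to -0.25). The median of all genes was a log2 ratio of 1.54. On the other scale the median was -0.01, 0 genes were higher, against 9.09%, and 2 were lower, against 4.15%. These were *Kcnn4*, at -1.16 (-1.29 to -1.03), and *Gjb1*, at -1.31 (-1.66 to -0.98). In all UMIs both had the opposite sign, at 0.39 (0.26 to 0.52) and 0.24 (-0.11 to 0.57). *Aqp5* was at 0.95 (0.88 to 1.03) in all UMIs and -0.60 (-0.67 to -0.52) without the dominant transcripts. Its value in all UMIs lies close to 2-fold and passed it under 5 alternatives, at 1.75 with 10 principal components, 1.39 by the mean of per-cell levels, and 1.02 to 1.04 under the other 3, but fell to 0.12 with the unnamed clusters joined to a class. In that alternative clusters 0, 2 and 14 (2891, 2264 and 233 cells) joined the 355 mucous acinar-like cells, so most cells of the class came from them. Cluster 2 carried 8 of the 10 serous acinar markers and cluster 0 all 4 Dcpp-rich markers. With the clusters joined the *Chrm3* ratio also fell below 2-fold, to 0.92, and that of *Kcnn4* turned to -0.20. *Slc12a2* was at 0.67 (0.57 to 0.76) and -0.88 (-0.97 to -0.79), and *Ano1* at 0.83 (0.44 to 1.20) and -0.72 (-1.11 to -0.35). Every tested member changed sign between the scales here. The change of scale shifts all genes of this contrast alike, so that change of sign is no result about the members. Relative to the median all 7 lay below 0, from -1.30 for *Gjb1* to -0.24 for *Chrm3*.

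In Dcpp-rich against serous acinar-like cells 0 of 7 tested genes were higher in all UMIs, against 12.9% of 10083 genes, and 1 was lower, against 3.78%. This was *Slc12a2*, at -1.11 (-1.21 to -1.01), and it stayed lower without the dominant transcripts, at -1.75 (-1.85 to -1.65), and relative to the median, at -1.37. The median of all genes was 0.26 in all UMIs and -0.37 without the dominant transcripts. On the latter scale 0 genes were higher, against 5.14%, and 2 were lower, against 14.3%, the other being *Ano1* at -1.30 (-1.69 to -0.93). *Slc12a2* was thus the member called lower on both scales, though by the mean of per-cell levels it was at -0.97, within 2-fold. *Kcnn4* was at -0.09 (-0.19 to 0.00) in all UMIs and -0.73 (-0.82 to -0.63) without the dominant transcripts, and *Aqp5* at -0.31 (-0.38 to -0.24) and -0.94 (-1.01 to -0.87). *Chrm1* was not tested in either contrast of acinar subtypes, since it had 0 UMIs in Dcpp-rich, 6 in mucous and 7 in serous acinar-like cells.

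**Figure D4:**
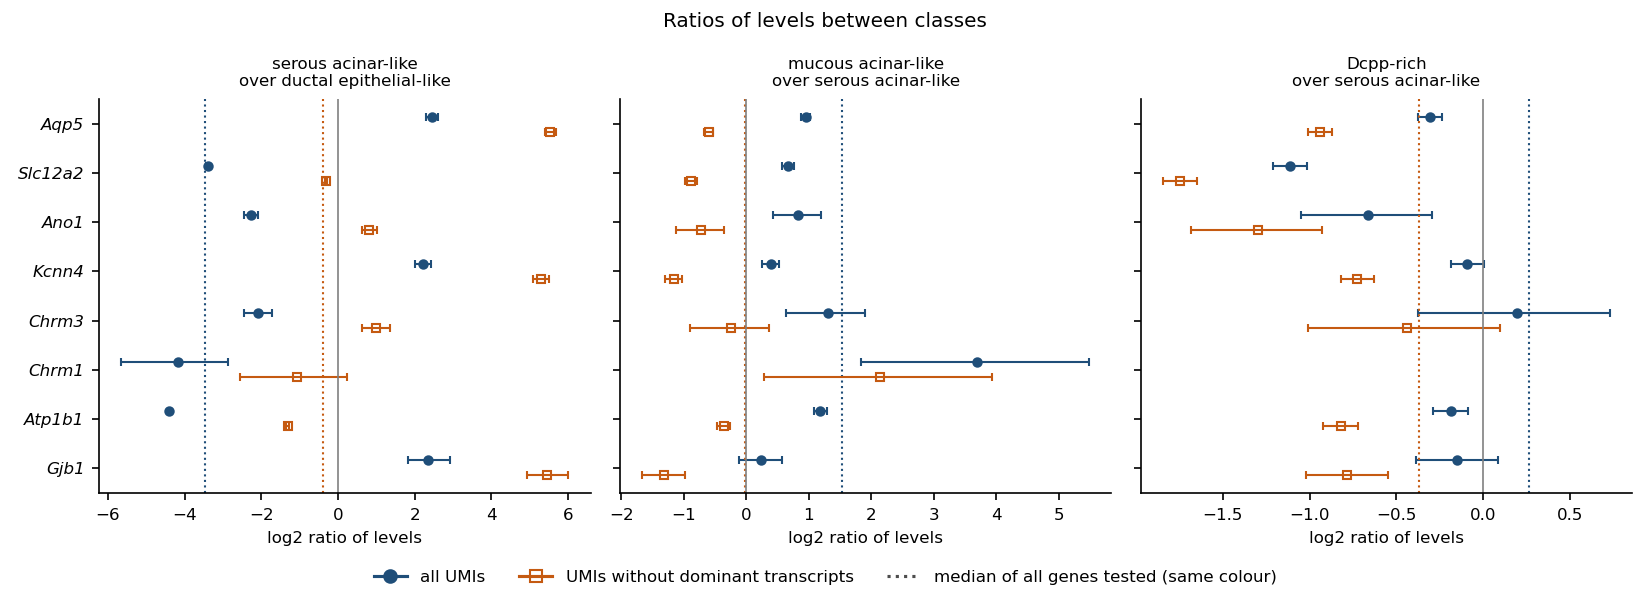
Log2 ratio of levels of the 8 genes between classes, per 10000 of all UMIs (filled circles) and without the 11 dominant transcripts (open squares), with exact 95% intervals and the median of all tested genes as dotted lines. *Aqp5*, *Kcnn4* and *Gjb1* lie far right of the median in the contrast with ducts, and *Slc12a2* lies left of it in Dcpp-rich cells.

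The genes were also counted within single cells. The median number of the 8 genes with a UMI was 4 in serous acinar-like, mucous acinar-like and Dcpp-rich cells, 3 in cluster 14, 2 in ductal epithelial-like cells, 1 in basal-like, vascular-like and mesenchymal-like cells, and 0 in lymphoid-like and myeloid-like cells. At least 5 of the 8 were found in 35.3% of serous acinar-like, 25.4% of Dcpp-rich, 21.7% of mucous acinar-like and 1.09% of ductal epithelial-like cells. With every cell thinned to 1000 of all UMIs, which brings back the dilution by the dominant transcripts, the median was 0 in serous acinar-like, 1 in mucous acinar-like and 2 in ductal epithelial-like cells, and at least 2 genes were found in 9.73%, 29.6% and 52.0% of them. The shares of single genes, given above, are like their levels not compared between genes, since the number of 3′ tags per transcript differs.

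The genes whose levels followed each member over the 21 clusters were ranked by Pearson correlation of log2 levels without the dominant transcripts, among 6459 genes with at least 500 UMIs. The clusters share 1 library and differ in depth, so the values describe likeness and carry no test. Among the members *Kcnn4* and *Gjb1* were most alike on this scale (r = 0.955, and 0.843 in all UMIs), followed by *Aqp5* and *Gjb1* (0.928 and 0.810). *Aqp5* and *Kcnn4* were less alike (0.844 and 0.571). *Slc12a2* and *Atp1b1* formed the other pair (0.884 and 0.860), and in all UMIs they were the most alike. *Kcnn4* and *Atp1b1* were nearly unrelated without the dominant transcripts (0.0795) and ran opposite in all UMIs (-0.607). *Ano1* had no close partner among the members, with *Aqp5* nearest on this scale (0.575). In all UMIs *Aqp5* was at 0.222, beside 0.230 for *Slc12a2* and 0.225 for *Atp1b1*.

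For *Aqp5* the most alike gene was *Cldn10* (0.977), which encodes a tight junction protein and belongs to the other fluid secretion genes. Then came *Pip* (0.964), a serous acinar marker and itself 1 of the 11 dominant transcripts, and *Eef1akmt3* (0.963). For *Slc12a2* the most alike gene was *Stk39* (0.955), which encodes the kinase SPAK known to activate this cotransporter. In all UMIs *Stk39* was at 0.913 and ranked 7, and *Pam* ranked 1. Without the dominant transcripts *Pam* (0.938) and *Ncald* (0.937) followed *Stk39*. Among the genes most like *Atp1b1* were *Arfgef2* (0.962) and *Shroom3* (0.958). *Kcnn4* was followed by *Gjb1*, *St3gal1* (0.930) and *Creb3l1* (0.924), and *Gjb1* by *Serp1* (0.964, but 0.424 in all UMIs), *Kcnn4* and *Qsox1* (0.948). *Ano1* was most like *Lurap1l* (0.863), *Cald1* (0.857), a gene of contractile cells, and *Eif5b* (0.850, but 0.361 in all UMIs). *Chrm3* and *Chrm1* had fewer than 500 UMIs and were not ranked.

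In the gene annotation of the GRCm38 build all 8 genes are protein coding. *Aqp5* (ENSMUSG00000044217) lies on the + strand at chr15:99590782-99594829, *Kcnn4* (ENSMUSG00000054342) on the + strand at chr7:24370263-24386690 and *Ano1* (ENSMUSG00000031075) on the - strand of the same chromosome at chr7:144588549-144751974. *Gjb1* (ENSMUSG00000047797) lies on the + strand at chrX:101376378-101385629, *Chrm1* (ENSMUSG00000032773) on the + strand at chr19:8663789-8683587, *Atp1b1* (ENSMUSG00000026576) on the - strand at chr1:164437109-164458355 and *Slc12a2* (ENSMUSG00000024597) on the + strand of chromosome 18. *Chrm3* (ENSMUSG00000046159) lies on the - strand at chr13:9875486-10360847 and is overlapped by 4 gene models on its own strand, and how the authors' counting treated the overlap was not tested. The 8 genes thus lie on 7 chromosomes, and the 3 that went with serous acini do not lie together.

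Of the 60 other fluid secretion genes on the list, 49 had at least 20 UMIs. By level in all UMIs 3 of the 49 were highest in an acinar class, against 2.33% of all genes, and without the dominant transcripts 10 were, against 19.9%. Between serous acinar-like and ductal epithelial-like cells 1 of 42 tested was higher in all UMIs, *Cldn10* at 1.94, against 0.929% of all genes, and 39 were lower, against 95.6%. Without the dominant transcripts 4 were higher, against 11% of all genes, and 25 lower, against 28.2%, and *Cldn10*, at 5.03, and *Slc26a6*, an anion exchanger gene, at 3.24 (0.16 in all UMIs), were among the 4. The others were *Fxyd3*, a regulator of the sodium pump, at 2.42 (but -0.67 in all UMIs), and *P2rx4*, an ATP receptor gene, at 1.27 (but -1.82 in all UMIs). On the duct side, without the dominant transcripts, lay the IP3 receptor genes *Itpr2* at -4.02 and *Itpr1* at -2.62 and the pump regulator *Fxyd2* at -4.87. The calcium pump gene *Atp2a2*, at 0.65 (but -2.44 in all UMIs), was within 2-fold.

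Of the other chloride exit genes none of the 5 tested was higher in serous acini on either scale. *Cftr*, the chloride channel gene of ducts, was at -5.26 without the dominant transcripts, *Ano6* at -1.80 and *Ano10* at -1.63, while *Clcn3* was at 0.49 (but -2.60 in all UMIs) and *Lrrc8a* at -0.05. Of the other muscarinic receptors *Chrm2* had 5 UMIs, *Chrm4* 2 and *Chrm5* 0 in the whole matrix, so *Chrm3* was the muscarinic receptor with by far the most UMIs. Of the other water channels *Aqp1* had 244, most of them in vascular-like cells, *Aqp3* 2, *Aqp4* 7, *Aqp8* 0 and *Aqp11* 30 UMIs.

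In mucous against serous acinar-like cells 33 of 38 other fluid secretion genes were higher in all UMIs, against 77.4% of all genes, and 0 were lower, against 0.109%. Without the dominant transcripts 12 were higher, against 9.09%, and 1, *Adrb1*, was lower, against 4.15%, at -1.28 (but 0.27 in all UMIs). In Dcpp-rich against serous acinar-like cells 9 of 36 were higher, against 12.9%, and 1, *Adrb1*, was lower, against 3.78%. With the dominant transcripts left out 7 were higher, against 5.14%, and 4 lower, against 14.3%. The potassium channel subunit gene *Kcne1* had the largest of these ratios, 7.51 in Dcpp-rich and 5.33 in mucous acinar-like cells, against -0.73 and -1.16 for *Kcnn4*. Its level without the dominant transcripts was 16.8 (16.2 to 17.4) in Dcpp-rich and 3.71 (3.37 to 4.08) in mucous acinar-like cells, against 0.0921 (0.0692 to 0.120) in serous acini. The sodium bicarbonate cotransporter gene *Slc4a4* (4.48 and 3.36) and the receptor gene *Vipr1* (5.30 and 4.80) were also higher in both subtypes than in serous acini.

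Because *Aqp5*, *Kcnn4* and *Gjb1* were higher in serous acinar-like than in ductal epithelial-like cells on both scales, their promoters are shown. Promoter sequences (250 bases before to 50 after the transcript start, from RefSeq on GRCm38.p6) matched 6 of the 8 genes by symbol, with 9 windows, 4 of them of *Gjb1*. The letters CATATG and CACGTG, both forms of the E-box CANNTG that basic helix-loop-helix factors bind, were searched on both strands, which are the same for these palindromes. CATATG was chosen after the levels had been seen and CACGTG after these sequences had been read. CACGTG occurs in 1 place in *Aqp5* and 1 in *Kcnn4*, and CATATG in 1 of the 4 windows of *Gjb1*. Of 32851 promoters of 300 bases 7.15% hold CACGTG and 3.92% hold CATATG. These shares are per window, whereas *Gjb1* had 4 windows. They are no test of CACGTG, which was chosen from these sequences. A match describes the letters and does not show a site in use. The windows lie at chr15:99590778-99591077 for *Aqp5*, chr7:24370013-24370312 for *Kcnn4* and chrX:101383482-101383781 for *Gjb1*, all on the + strand, and capitals mark the match.
Aqp5: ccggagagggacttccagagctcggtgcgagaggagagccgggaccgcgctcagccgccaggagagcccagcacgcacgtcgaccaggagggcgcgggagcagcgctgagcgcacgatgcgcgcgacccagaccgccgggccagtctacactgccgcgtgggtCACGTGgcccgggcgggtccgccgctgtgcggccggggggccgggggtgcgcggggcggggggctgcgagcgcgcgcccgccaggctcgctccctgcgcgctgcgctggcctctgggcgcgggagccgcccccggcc
Kcnn4: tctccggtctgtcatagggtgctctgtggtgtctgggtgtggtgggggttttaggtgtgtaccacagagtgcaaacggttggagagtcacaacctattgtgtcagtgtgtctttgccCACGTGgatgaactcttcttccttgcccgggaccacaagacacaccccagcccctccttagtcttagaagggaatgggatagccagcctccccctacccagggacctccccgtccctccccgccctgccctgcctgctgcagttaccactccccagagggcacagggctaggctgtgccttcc
Gjb1: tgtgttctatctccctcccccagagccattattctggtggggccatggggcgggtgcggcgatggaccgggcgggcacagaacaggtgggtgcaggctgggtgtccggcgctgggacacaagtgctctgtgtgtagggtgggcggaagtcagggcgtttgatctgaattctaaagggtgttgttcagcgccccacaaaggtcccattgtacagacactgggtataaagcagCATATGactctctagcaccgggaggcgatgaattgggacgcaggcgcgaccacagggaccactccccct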

How the data were processed

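The data are UMI counts of 10x Genomics 3′ libraries, which the authors deposited as 1 matrix made with Cell Ranger 6.0.1 and not normalized, and the submitters' notes also name mm10 and Seurat 4.1.1. All 4 samples, untreated and of both glands, share 1 barcode suffix and were grouped as 1 sample, so no test was run. The labels name 2 mice and the published methods 3. No barcode of the 15707 was removed. The median depth was 2608 UMIs, and none had fewer than 1000. The 16S and proteomics data were not used here.

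Clustering used Seurat 5.3.0 in R 4.3.3: counts log-normalized to 10000, 2000 variable genes (vst) of which 22 members and other fluid secretion genes were left out, leaving 1978, 20 principal components, and Louvain clusters at a resolution of 0.5. A marker counted when at least 25% of the cells of a cluster carried it at a level higher than in the rest of the cells, and a name needed at least 3 markers of a list. Names were a judgement made with leading genes and marker counts in view. Clusters 8, 10, 13, 15 and 19 had at least 3 markers of a further list and were named all the same, while clusters 0, 2 and 12, with few genes per cell, and 14, with too few markers of the list of its leading gene, stayed unnamed. Cluster 14 did carry 3 of the 22 ductal markers, *Krt8*, *Krt18* and *Esp4*. Scrublet in scanpy 1.11.5 called 0 of 15707 cells as doublets, so the caller cannot be taken to have worked, and no cell was removed.

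The members and lists were chosen with earlier results of these data known. The genes named are the members, 60 other fluid secretion genes, the markers, the dominant transcripts, the leading genes of each cluster and the 3 genes most like a member. Levels carry exact Poisson intervals, and shares of cells and ratios exact binomial intervals. Counting and intervals ran in Python 3.11.15 (pandas 2.3.3, numpy 2.4.6, scipy 1.17.1) and plots in matplotlib 3.10.9. The contrast call was also run on simulated data, and no value in this text comes from that run.

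As alternatives, the clustering was run at other resolutions and with fewer or more principal components, the fluid genes were kept among the variable genes, cells were filtered, and the 10% of cells with the highest Scrublet scores were left out. Other scales of level, free RNA taken away, unnamed clusters joined to a class, other limits of the call and thinned cells were tried too. Free RNA was not measured. It was taken away by subtracting the UMIs per cell of lymphoid-like cells from those of every class, also for genes known in lymphocytes. Ratios relative to the median of all genes and to the dominant transcripts were added after seeing the data. Positions are from GENCODE M21 on GRCm38.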

Additional observations from a re-analysis of the deposited data

How the results depend on the processing

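Values below are compared with those per 10000 of all UMIs, and the cause of each difference was not tested. Members highest in an acinar class went from 3 to 5 with 10 principal components, without the dominant transcripts, by UMIs per cell, and with free RNA taken away. Without the dominant transcripts, members lower in serous acini than in ducts went from 5 to 1, members higher in mucous than in serous acini from 2 to 0 and lower from 0 to 2, and members lower in Dcpp-rich cells from 1 to 2. There the log2 ratio of serous acini over ducts turned to 0.82 for *Ano1* and 0.99 for *Chrm3*, and that of mucous over serous acini to -1.16 for *Kcnn4*, -0.25 for *Chrm3*, -0.36 for *Atp1b1* and -1.31 for *Gjb1*. By UMIs per cell the counts were 1 lower than in ducts and 0 higher in mucous acini, with *Ano1* at 0.67, *Chrm3* at 0.83 and, in mucous acini, *Atp1b1* at -0.0069. With free RNA taken away they were 2 and 0, with *Ano1* at 0.69, *Chrm3* at 0.85 and *Atp1b1* at -0.0077. By the mean of per-cell levels 5 were higher in mucous acini and 0 lower in Dcpp-rich cells, and at 1.5-fold 5 and 2. Relative to the median of all genes, an alternative added after seeing the data, 5 were higher and 0 lower in serous acini than in ducts, and 0 were higher and 2 lower in mucous acini. There *Slc12a2* was at 0.082, *Ano1* at 1.21 and *Chrm3* at 1.38 over ducts, and *Kcnn4* at -1.15, *Chrm3* at -0.24, *Atp1b1* at -0.35 and *Gjb1* at -1.30 in mucous over serous acini. The share of cells with a UMI, serous acini minus ducts, turned to -38.4 points at 500 UMIs and -44.3 at 1000 for *Slc12a2*, to -1.65 and -2.53 for *Ano1*, and to -0.252 and -0.715 for *Chrm3*. The median number of members per serous acinar-like cell fell from 4 to 0 at 1000 UMIs. Of the other values of member counts and medians 83 were equal or, for counts, within 1.5 times. Those within that limit but not equal were members higher in mucous acini, 3 for 2 with 30 principal components, with the fluid genes kept, with the cell filter and with no minimum of UMIs, and members highest in an acinar class, 4 for 3 by the mean of per-cell levels. Of the single-gene results 171 stayed within their interval or, for the genes most like a member, shared at least 2 of 3, and 118 moved, among them *Aqp5*, *Slc12a2* and *Ano1* in mucous over serous acini, which changed sign without the dominant transcripts. By these limits, of 23 results leaving out the cells with the highest Scrublet scores moved 0, 30 principal components 2, the fluid genes kept 4, unnamed clusters joined 4, resolution 0.8 moved 6, 10 principal components 9, the cell filter 9 and the mean of per-cell levels 11. Among them *Gjb1* over ducts went from 2.35 to 1.70 with the cell filter. In mucous over serous acini *Aqp5* went from 0.95 to 1.75 and *Atp1b1* from 1.19 to 0.94 with 10 principal components, so the genes called changed while their count did not. With unnamed clusters joined, clusters 0, 2 and 14 (2891, 2264 and 233 cells) entered the mucous acinar-like class of 355 cells. In this contrast *Aqp5* then went to 0.12, *Chrm3* from 1.30 to 0.92 and *Kcnn4* from 0.39 to -0.20. *Chrm3* was then no longer called, though the count stayed at 2. At resolution 0.3 no Dcpp-rich cluster was found, so that contrast has no value there.

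The limits are 1 pooled matrix without replicates, so intervals cover counting error only and no spread between mice or glands is known. The acinar classes have more UMIs than the others, mostly of dominant transcripts, and thinning all UMIs does not even this out. *Chrm1*, with 53 UMIs, was ordered between few classes. Class names rest on marker genes, 5858 cells had none, and the mural-like class has 84 cells. No paired analysis was possible because all samples belong to 1 group and cells carry no sample number.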

Other observations

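Some fluid secretion genes outside the 8 members had their highest level away from the epithelium. Without the dominant transcripts, 13 of the 49 were highest in mural-like and 8 in vascular-like cells. Another 12 were highest in ductal epithelial-like and 2 in basal-like cells, and 10 in an acinar class, where 19.9% of all genes were. The rest were highest in mesenchymal-like, myeloid-like or lymphoid-like cells. The water channel gene *Aqp1* was vascular, with 198 of its 244 UMIs in vascular-like cells, a level of 1.85 (1.60 to 2.13) without the dominant transcripts, and 1 UMI in serous acinar-like cells. Mural-like cells led for the connexin genes *Gjc1*, at 3.14 against 0.440 in vascular-like cells, and *Gja4*, at 2.03 against 0.730. They also led for the pump gene *Atp1b2*, at 2.42, and the pump regulator *Fxyd1*, at 12.03 against 3.71 in mesenchymal-like cells. *Orai1*, a calcium entry channel gene, was highest in lymphoid-like cells, at 1.69 (1.52 to 1.87), against 0.683 in myeloid-like and 0.251 in serous acinar-like cells.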
